A study of Mus musculus with 2 samples.

Results

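The Notch genes followed here through the cells of the mouse heart at mid-gestation (E11.5) are 10: the ligands Dll4, Jag1 and Jag2, the receptors Notch1, Notch2 and Notch4, and the target genes Hey1, Hey2, Heyl and Hes1. They were chosen by name among 22401 counted features, and all 10 were found by their Ensembl IDs. Notch receptors sit in the cell membrane and are cut, first by an ADAM protease and then by gamma-secretase, when a ligand on a neighbouring cell binds them. The freed intracellular domain joins the DNA-binding protein RBPJ and a Mastermind co-activator and turns on Hes and Hey genes, which encode bHLH repressors. In the embryonic heart this exchange is best known in the endocardium, the inner lining, where it takes part in trabeculation and in the formation of the cushion mesenchyme that gives rise to the valves.

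The data were 2 single-cell libraries of embryonic hearts, 1 per genotype, made with 10x Genomics 3′ chemistry. Embryos of both groups were kept on ice for about 3 hours before their hearts were dissociated with TrypLE. Control embryos were Hand2fx/+ R26RmTmG/wt and carried no Cre. H2CKO embryos were Nfatc1Cre/wt Hand2fx/fx R26RmTmG/wt, so that Hand2, which encodes a bHLH transcription factor, is deleted where Nfatc1-Cre acts, mainly in the endocardium and in cells that derive from it. All embryos of both groups carried 1 copy of the mTmG reporter, which makes membrane Tomato and, after Cre has acted, membrane GFP. The presence of Cre and the loss of Hand2 cannot be told apart in this design, and the number and sex of the embryos are not in the labels. Each genotype is a single library, so nothing could be checked against replicates: every difference below is between these libraries, intervals are 95% and cover counting error only, and no p-value was computed.

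After filtering, 8921 control and 11534 H2CKO cells remained, with medians of 16250 and 13432 UMIs. Of the deposited barcodes 57 occurred in both libraries. The cells formed 20 clusters, 18 of which were named from marker lists with the ending "-like". None of the 10 genes, and no other Notch pathway gene, was used to cluster the cells. Of 16 endothelial markers, 16 were detected in at least 10% of the cells of one endothelial-like cluster and 15 in the other, and these are told apart here by the flow-responsive gene Klf2. Levels are CPM, the UMIs of a gene divided by all UMIs of that cluster and library and scaled to 1000000. The Klf2-low cluster (129 control and 487 H2CKO cells) had 514 and 416 CPM of Klf2, and the Klf2-rich cluster (260 and 268 cells) had 2103 and 2322 CPM. Hand2 was 171 CPM in the control and 12.9 CPM in H2CKO in the Klf2-low cluster, and 252 and 7.81 CPM in the Klf2-rich cluster. GFP was 13.2 and 958 CPM in the Klf2-low cluster and 18.0 and 1626 CPM in the Klf2-rich cluster.

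Dll4 was found almost only in endothelial-like cells. Dll4 (chr2:119325784-119335962, GRCm38, plus strand) encodes the Delta ligand of arterial and endocardial cells, and 82 of its 83 UMIs in the control library and 317 of 329 in H2CKO came from the endothelial-like clusters. The Klf2-low cluster held 27.4 CPM in the control (95% interval 20.7 to 35.6) and 46.4 CPM in H2CKO (41.2 to 52.0). The Klf2-rich cluster held 5.94 and 7.82 CPM. In both libraries Dll4 was therefore higher in the Klf2-low than in the Klf2-rich cluster, with intervals that do not overlap. A Dll4 UMI was found in 27.1% of control and 40.0% of H2CKO cells of the Klf2-low cluster, and in 10.2% and 20.8% after each cell was thinned to 5000 UMIs, beside 0.0365% and 0.0602% of unthinned erythroid-like cells. Median depths were 13421 and 10724 UMIs in the Klf2-low and 18339.5 and 13230.5 in the erythroid-like cells. In 1613 mesenchymal-like control cells no Dll4 UMI was counted, which allows a level of up to 0.131 CPM by 3 counts.

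Jag1 had a wider range of sources. Jag1 (chr2:137081456-137116644, minus strand), the Jagged ligand known for its role in valve and outflow tract development, was highest in the Klf2-rich cluster, at 89.6 CPM in the control (80.9 to 98.9) and 39.7 CPM in H2CKO (33.1 to 47.3). It was next highest in the control in the atrial-like cardiomyocyte cluster (45.5 CPM, 36.8 to 55.6). Upk3b-rich epicardial-like cells (24.8 CPM) and the Klf2-low cluster (20.6 CPM) followed with overlapping intervals, and the ventricular cardiomyocyte clusters, rich in Myh7, in Acta1 or in trabecular genes, lay between 9.03 and 10.8 CPM. In H2CKO the Klf2-rich cluster again came first, and the Twist1-rich mesenchymal-like cells came next at 12.4 CPM (9.80 to 15.4), which overlaps the cells that followed. Counted over whole libraries, cardiomyocyte-like cells with the Rspo3- and Sema3c-rich cluster gave 43.2% of all Jag1 UMIs in the control and the endothelial-like clusters 24.4%, shares that depend on how many cells of each kind were caught.

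Jag2 marked yet another set of cells, at low levels. Jag2 (chr12:112907819-112929776, minus strand) encodes the other Jagged ligand. It was highest in an unnamed cluster that is rich in Rspo3 and Sema3c and carries all 15 cardiomyocyte markers, at 12.6 CPM in the control and 7.58 CPM in H2CKO. The Bmp2- and Tbx3-rich cardiomyocyte cluster held 11.2 and 5.24 CPM, and the Klf2-rich endothelial-like cluster 8.22 and 4.69 CPM. The intervals of these 3 clusters overlap within each library. Klf2-low cells held only 2 and 13 Jag2 UMIs.

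**Figure D1:**
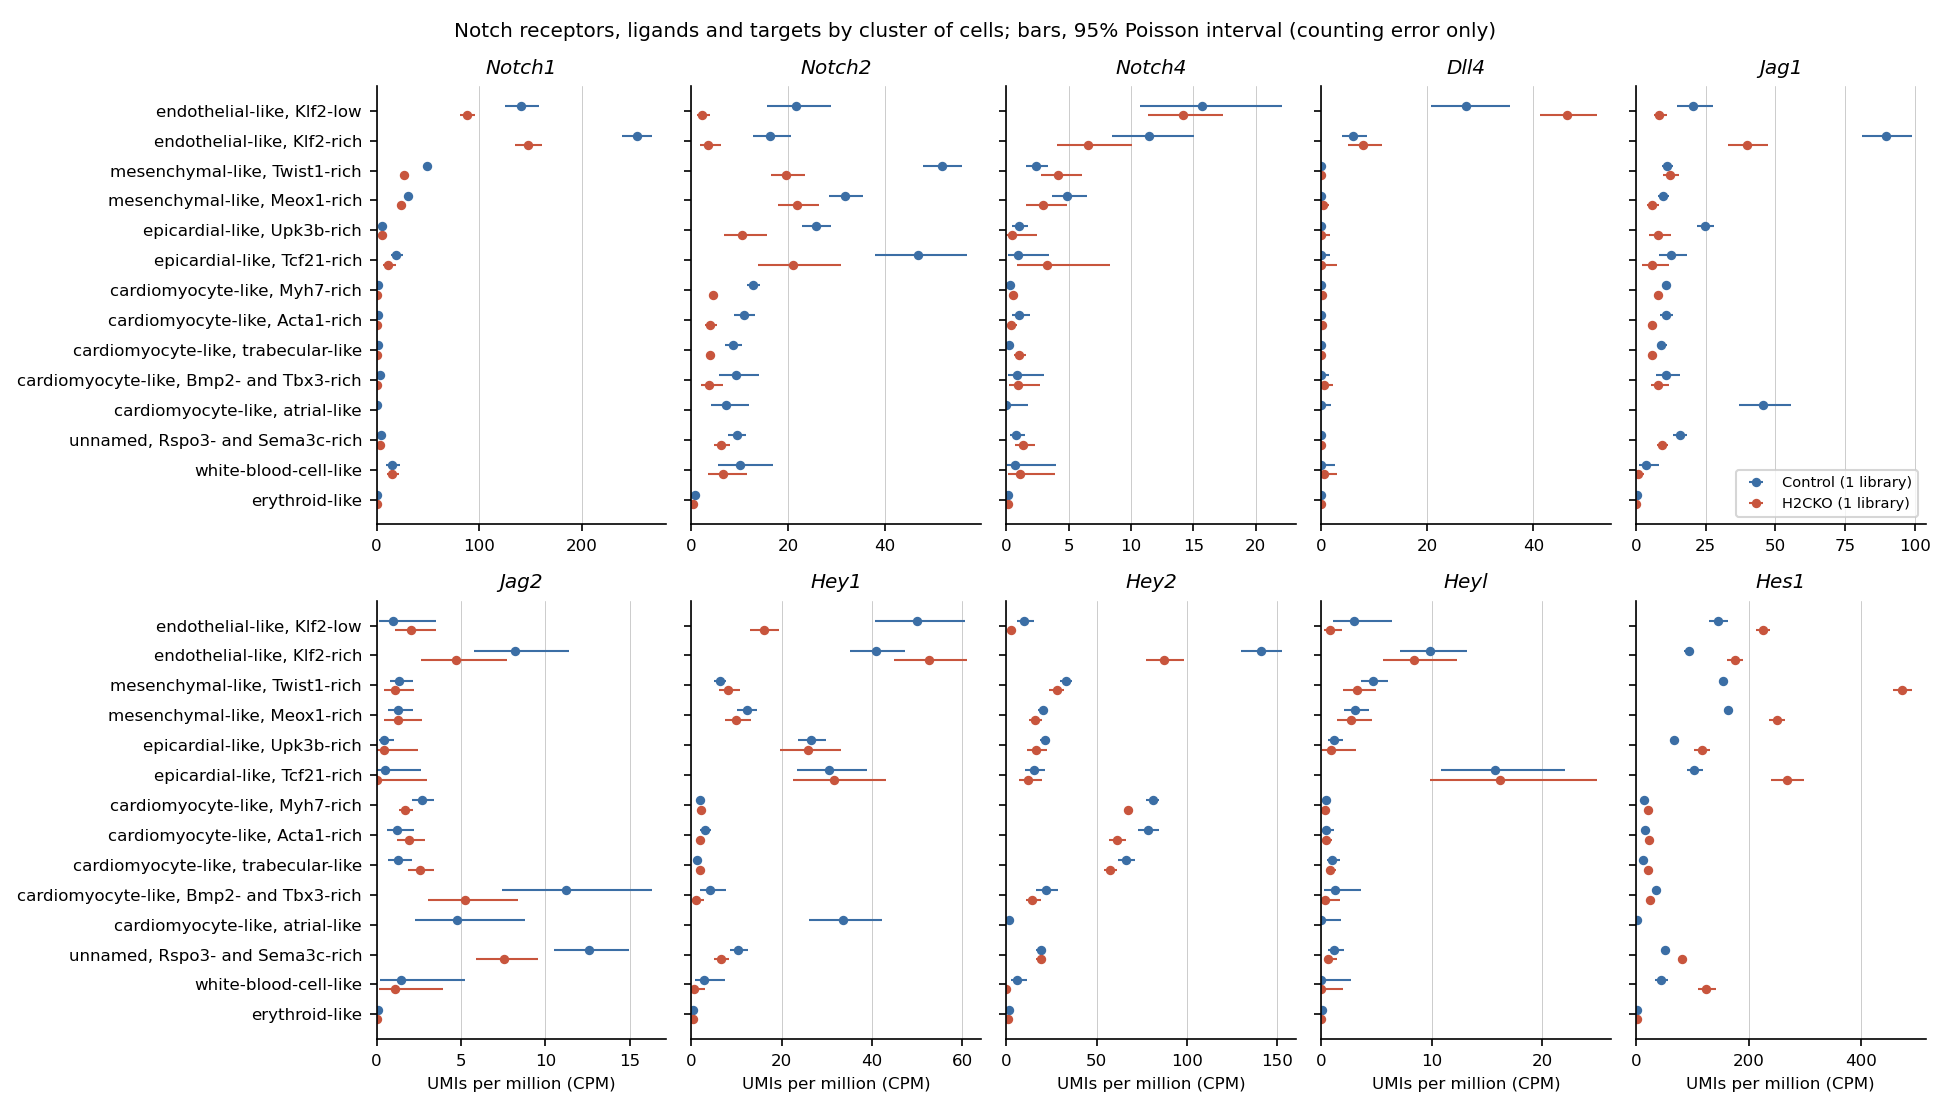
Level of each of the 10 genes in CPM (x axis, a different range per panel) in 14 clusters or classes (y axis). Points are the control (blue) and H2CKO (red) library, and bars are 95% Poisson intervals. Dll4 is high in the Klf2-low endothelial-like cluster, Notch1 in both endothelial-like clusters, Hey2 in the Klf2-rich cluster and the ventricular cardiomyocytes, and Hes1 in H2CKO mesenchymal-like cells. The atrial-like cluster had 4 H2CKO cells and shows the control only.

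Notch1 was highest in the endothelial-like cells, and Notch2 in mesenchymal-like and Tcf21-rich epicardial-like cells, which also held Notch1. Notch1 (chr2:26457903-26516663, minus strand) was 253 CPM in the control Klf2-rich cluster (238 to 269) and 140.4 CPM in the Klf2-low cluster (125 to 158). Mesenchymal-like cells followed at 49.2 CPM in the Twist1-rich cluster, which also leads with Sox9 and Hapln1, and 30.5 CPM in the Meox1-rich cluster. Each of these 4 clusters differed from the next beyond its interval, and control cardiomyocyte clusters held at most 2.91 CPM. Endothelial-like cells gave 53.9% of all Notch1 UMIs in the control and 71.0% in H2CKO, and mesenchymal-like cells gave 36.2% and 19.6%.

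Notch2 (chr3:98013527-98150361, plus strand) was highest in the control in Twist1-rich mesenchymal-like cells, at 51.7 CPM (47.9 to 55.8), with Tcf21-rich epicardial-like cells at 46.7 CPM (37.9 to 57.0) not separable from them. Meox1-rich mesenchymal-like cells (31.7 CPM) and Upk3b-rich epicardial-like cells (25.8 CPM) came next. The Klf2-low endothelial-like cluster was at 21.5 CPM. Of all Notch2 UMIs in the control, 5.23% came from endothelial-like cells and 44.7% from mesenchymal-like cells. Notch4 (chr17:34564268-34588503, plus strand), a receptor known from endothelium, was low: 15.7 CPM in the control and 14.1 CPM in H2CKO in the Klf2-low cluster, 11.4 and 6.57 CPM in the Klf2-rich cluster, and under 5 CPM in the mesenchymal-, epicardial- and cardiomyocyte-like clusters. The intervals of the 2 endothelial-like clusters overlap in Notch4 in the control and not in H2CKO.

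Ligand and receptor UMIs were also counted per cell. Before thinning, a Jag1 UMI was found in 56.9% and a Notch1 UMI in 89.2% of the control Klf2-rich cells, and in 33.96% and 69.8% of the H2CKO ones. The shares that follow are after thinning to 5000 UMIs per cell. In the control Klf2-rich cluster 36.3% of 245 cells then held a UMI of Dll4, Jag1 or Jag2, 74.3% held one of Notch1, Notch2 or Notch4, and 29.4% held both. Atrial-like control cells held a ligand UMI in 25.5% of 102 cells and a receptor UMI in 2.94%. Twist1-rich mesenchymal-like control cells were the reverse, with a ligand UMI in 5.26% and a receptor UMI in 35.6% of 894 cells. Erythroid-like cells, which should lack these genes and show the level of free RNA, had a ligand UMI in 0.227% and a receptor UMI in 0.454% of 2645 control cells, and in 0.0208% and 0.208% of 4805 H2CKO cells. In H2CKO the Klf2-rich cluster held both kinds in 13.9% of 237 cells (9.78% to 19.0%), below the control interval of 23.8% to 35.5%. Median depths before thinning were 12212.5 and 8799.5 UMIs in the control and H2CKO Klf2-rich cluster those of the erythroid-like cells are given above.

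**Figure D2:**
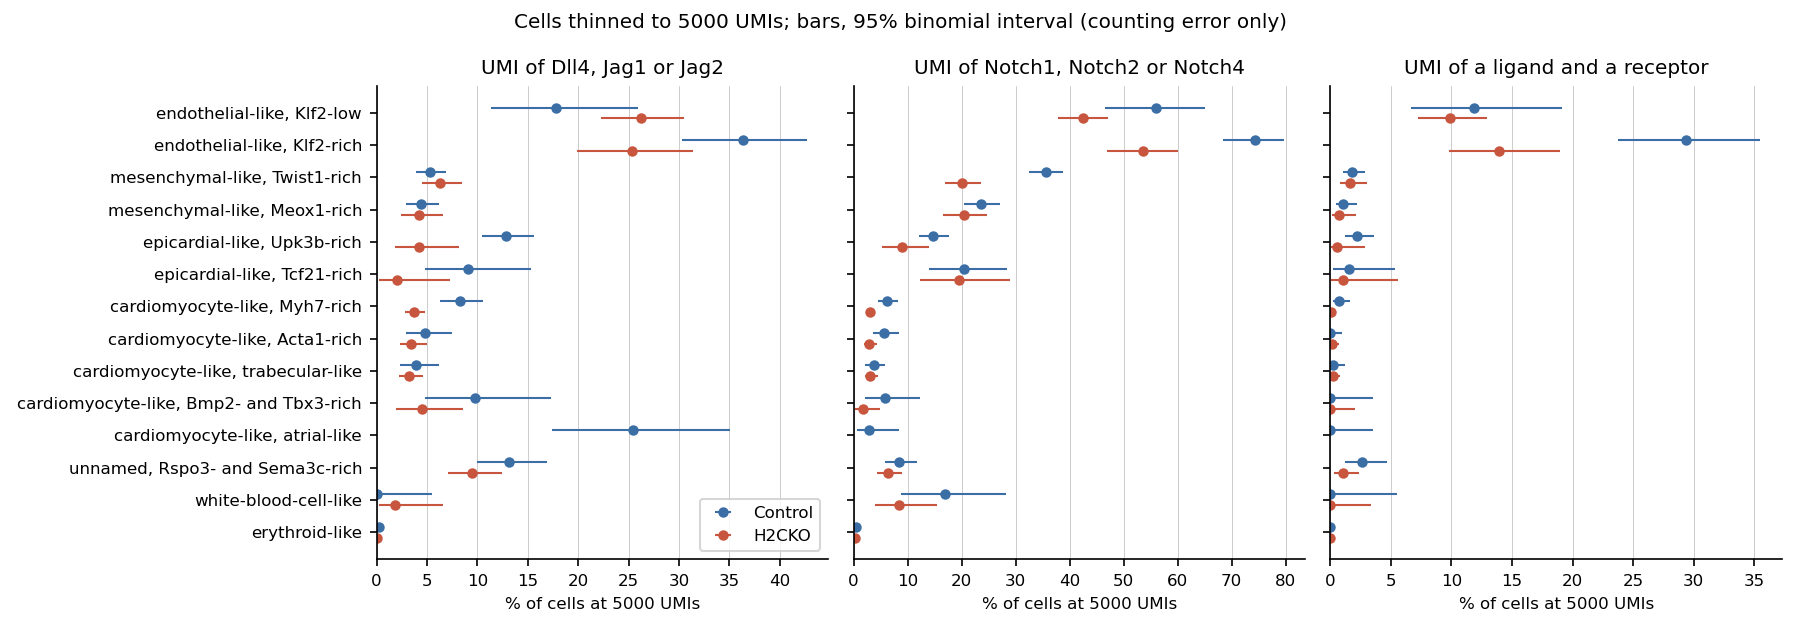
Share of cells (x axis, %) with at least 1 UMI of a ligand (left), of a receptor (middle) and of both (right) after thinning each cell to 5000 UMIs, by cluster (y axis) and library (blue control, red H2CKO). Bars are 95% binomial intervals. The Klf2-rich endothelial-like cluster holds both kinds most often, 29.4% in the control and 13.9% in H2CKO, while atrial-like cells hold ligands and mesenchymal-like cells hold receptors.

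The Hey genes overlapped in the Klf2-rich cluster and in epicardial-like cells but in the control Hey1, Hey2 and Heyl were not highest in the same clusters. In H2CKO Hey1 (52.6 CPM) and Hey2 (87.3 CPM) were both highest in the Klf2-rich cluster. Hey2 (chr10:30832359-30842801, minus strand), a repressor known from the compact ventricular wall, was 141 CPM in the control Klf2-rich endothelial-like cluster (130.3 to 153) and only 9.79 CPM in the Klf2-low cluster (5.98 to 15.1). Hey1 (chr3:8663359-8667256, minus strand), its close relative known from atrial muscle, did not separate these 2 clusters in the control, at 40.9 CPM in the Klf2-rich (35.1 to 47.3) and 49.9 CPM in the Klf2-low cluster (40.7 to 60.6). Heyl (chr4:123233556-123249875, plus strand), the third Hey gene, was highest in Tcf21-rich epicardial-like cells, at 15.7 CPM in the control and 16.2 CPM in H2CKO. The Klf2-rich cluster had 9.82 CPM of Heyl in the control, with an interval that overlaps that of the Tcf21-rich cells. Hes1 (chr16:30064384-30067796, plus strand), the Hes target, was spread more broadly, between 94.1 and 163 CPM in the endothelial- and mesenchymal-like clusters of the control and between 11.6 and 35.4 CPM in the named ventricular and Bmp2- and Tbx3-rich cardiomyocyte clusters.

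In muscle, Hey2 and Hey1 were high in different clusters. Control Hey2 was 81.1 CPM in the Myh7-rich, 78.5 in the Acta1-rich and 66.6 in the trabecular-like cardiomyocyte cluster, the last of which leads with Nppa, Nppb and Gja5. It was 22.1 CPM in the Bmp2- and Tbx3-rich cluster, 19.2 CPM in the Rspo3- and Sema3c-rich cluster and 1.44 CPM (3 UMIs) in the atrial-like cluster, which leads with Stard10, Nr2f1 and Myl1. Hey1 ran the other way, with 33.5 CPM (70 UMIs) in atrial-like cells and between 1.33 and 2.92 CPM in the 3 ventricular clusters. In H2CKO the 3 ventricular clusters had Hey2 between 57.6 and 67.6 CPM. Atrial-like cells came almost entirely from the control library (104 cells, against 4 in H2CKO), so that no comparison by genotype was made there.

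**Figure D3:**
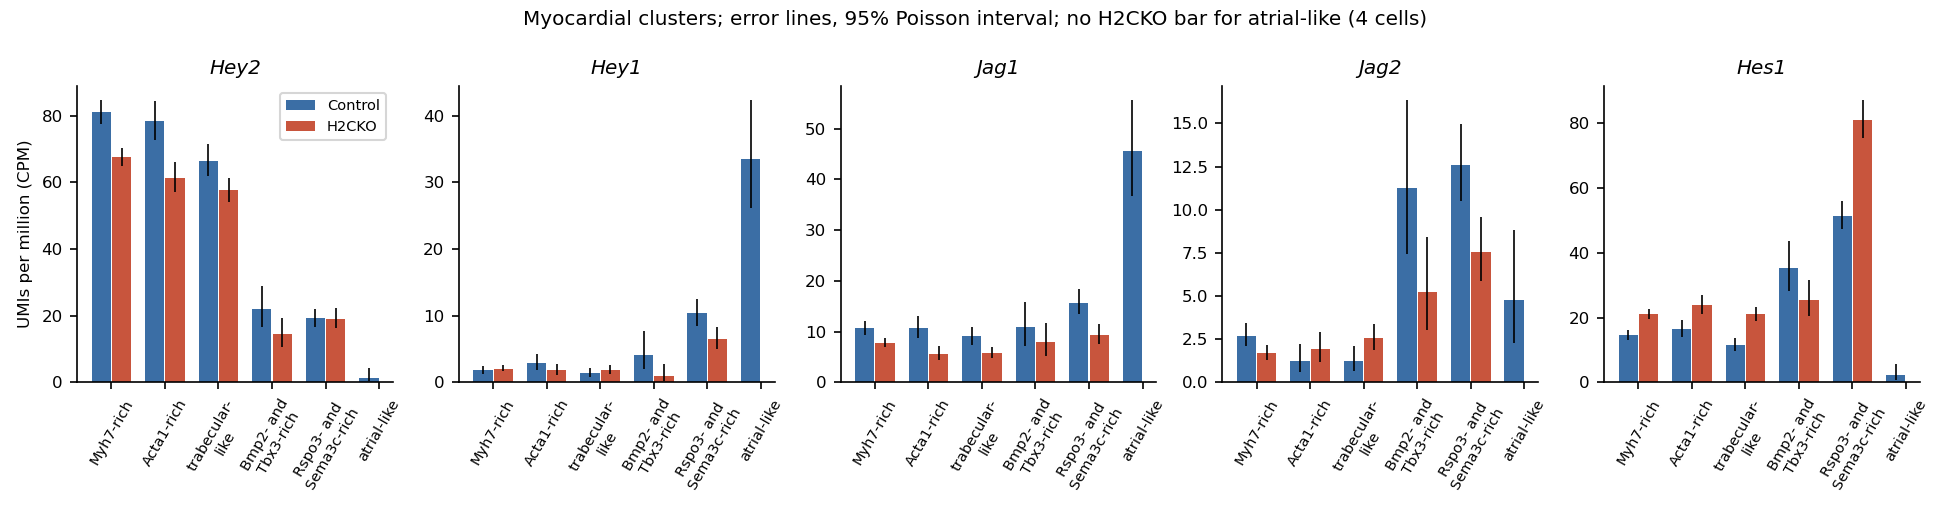
Level (y axis, CPM) of Hey2, Hey1, Jag1, Jag2 and Hes1 in 6 myocardial clusters (x axis) in the control (blue) and H2CKO (red) library, with 95% Poisson intervals as error lines. Hey2 is high in the Myh7-rich, Acta1-rich and trabecular-like clusters, Hey1 and Jag1 in the atrial-like cluster, and Jag2 in the Bmp2- and Tbx3-rich and the Rspo3- and Sema3c-rich clusters.

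The start of the Hey2 gene is shown because it is the only one of the 7 member promoters in the RefSeq table (GRCm38.p6) that holds the core letters known to bind RBPJ, TGGGAA. The stretch runs from 250 bases before the RefSeq start to 10 bases after it, chr10:30842774-30843033 on the minus strand, with the core letters in capitals on whichever strand they lie. Bases are counted from the RefSeq start. The gene position given above, from GENCODE, begins at 30842801 on this strand, so that the RefSeq start lies within it.

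Hey2: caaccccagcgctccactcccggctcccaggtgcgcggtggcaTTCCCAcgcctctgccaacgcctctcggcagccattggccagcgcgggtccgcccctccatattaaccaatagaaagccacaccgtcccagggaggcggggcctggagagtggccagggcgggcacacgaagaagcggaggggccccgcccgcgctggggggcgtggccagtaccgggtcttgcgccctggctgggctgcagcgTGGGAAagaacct

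One match begins 3 bases before the start on the coding strand, and the other begins 207 bases before it and lies on the opposite strand, so that it reads TTCCCA in the printed strand. Both also fit the longer form GTGGGAA. Over windows of 300 bases and both strands, 25.6% of 32851 promoters held the core and 6.38% the longer form. No match of the E-box CACGTG lay in any of the 7 windows, and 7.15% of all promoters held one. The other 6 (Notch1, Notch2, Notch4, Dll4, Jag1 and Jag2) held none of these letters.

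In the Klf2-low endothelial-like cluster, the H2CKO library had less Hey1 and Notch2 and more Dll4 and Hes1 than the control. In that cluster Hey1 was 49.9 CPM in the control and 16.0 CPM in H2CKO (102 and 101 UMIs), a ratio of 0.321 (0.242 to 0.427). Notch2 was 21.5 and 2.22 CPM (44 and 14 UMIs), a ratio of 0.103 (0.0523 to 0.192). Dll4, at 27.4 and 46.4 CPM, had a ratio of 1.69 (1.27 to 2.29). Notch1 was 140.4 and 88.3 CPM, a ratio of 0.629 (0.544 to 0.727), so that Dll4 and these receptors differed in opposite directions. The Jagged ligand Jag1 was 20.6 and 8.42 CPM, a ratio of 0.410 (0.268 to 0.629). Hes1 was 146 and 225 CPM, a ratio of 1.55 (1.36 to 1.76). The target genes did not differ in 1 direction, with Hey1 and Hey2 (9.79 and 2.54 CPM) lower and Hes1 higher.

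A gene was counted as past 2-fold when its log2 ratio (H2CKO over control, 5 CPM added to both levels) was at least 1 in size, among genes with at least 20 CPM and 20 UMIs in the higher library. In the Klf2-low cluster 6 of the 10 members reached that level, 2 of the 6 were past 2-fold lower (Notch2 −1.88, Hey1 −1.38) and 0 higher, while 8.16% of all 6335 genes at that level were past 2-fold lower and 1.39% higher. The median log2 ratio of the 6 was −0.79, beside −0.25 for all genes. Marker levels in this cluster also differed between the libraries. A different mix of cells and different levels within the same cells cannot be told apart here. Endocardial markers summed to 1142 CPM in the control (7 of 7 genes at 20 CPM or more) and to 305 CPM in H2CKO (5 of 7), and vascular endothelial markers to 139 CPM (2 of 8) and 439 CPM (4 of 8). A UMI of the endocardial genes Nfatc1 or Npr3 was found in 85.3% of control and 65.7% of H2CKO cells. In only those cells Hey1 had a log2 ratio of −1.29, Notch2 of −2.04 and Dll4 of 0.78. The part of these markers in the Notch values was not tested.

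In the Klf2-rich cluster Jag1 was lower in H2CKO, and Hey1 was not. Jag1 had 392 UMIs (89.6 CPM) in the control and 127 UMIs (39.7 CPM) in H2CKO, a ratio of 0.444 (0.360 to 0.543). Notch1 was 253 and 147 CPM, a ratio of 0.582 (0.522 to 0.649), and Hey2 was 141 and 87.3 CPM, a ratio of 0.618 (0.535 to 0.713). All 3 lay below the control beyond counting error. So did Notch2, at 16.2 and 3.44 CPM (71 and 11 UMIs), with a ratio of 0.212 (0.101 to 0.403), and Notch4, with 0.575 (0.328 to 0.9754), both under the level that counts of members require. Hey1 was 40.9 and 52.6 CPM, a ratio of 1.29 (1.04 to 1.60), the opposite direction to the Klf2-low cluster. That difference between clusters was not tested. The log2 ratio of Hey1, 0.33, was 0.02 with the gene span trend taken out. In H2CKO Hey1 was 45.6 CPM in the 234 cells with a GFP UMI and 139 CPM in the 34 without. Hes1, at 94.1 and 175 CPM, had a ratio of 1.86 (1.64 to 2.12).

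Of the 5 members at the required level in the Klf2-rich cluster, 1 was past 2-fold lower (Jag1, −1.08) and 0 higher, beside 3.35% and 0.652% of 6599 genes. The 2-fold call of Jag1 did not hold with cells thinned to 5000 UMIs (−0.76) or when centred on the median gene (−0.85). Nor did it hold with the gene span trend taken out (−0.96) or with each cell weighted alike. With both endothelial-like clusters summed Jag1 was at −1.60. Here too endocardial markers were lower in H2CKO, 633 CPM against 1167 CPM, and erythroid markers higher, 52157 CPM against 15183 CPM. Vascular markers were at 314 CPM in H2CKO and 296 CPM in the control (3 of 8 genes at 20 CPM or more in each). Most of that sum was Edn1, at 236 CPM in H2CKO and 232 CPM in the control. For Klf2-low cells the erythroid sum was 26211 CPM in the control and 43202 CPM in H2CKO. Mesenchymal markers, a list of cells that hold more Notch2, were lower in H2CKO in both clusters, 1660 and 642 CPM in the Klf2-rich cluster (12 and 6 of 15 genes at 20 CPM or more) and 820 and 229 CPM in the Klf2-low cluster (6 and 3 of 15). Mural markers were 68.5 and 12.4 CPM in the Klf2-low and 45.2 and 20.02 CPM in the Klf2-rich cluster. The part of these differences in the Notch values was not tested. On summing the 2 clusters, Hey1 was lower in H2CKO (−0.55), Hey2 was −1.53 and Dll4 1.11. That sum holds 129 Klf2-low and 260 Klf2-rich cells in the control and 487 and 268 in H2CKO.

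**Figure D4:**
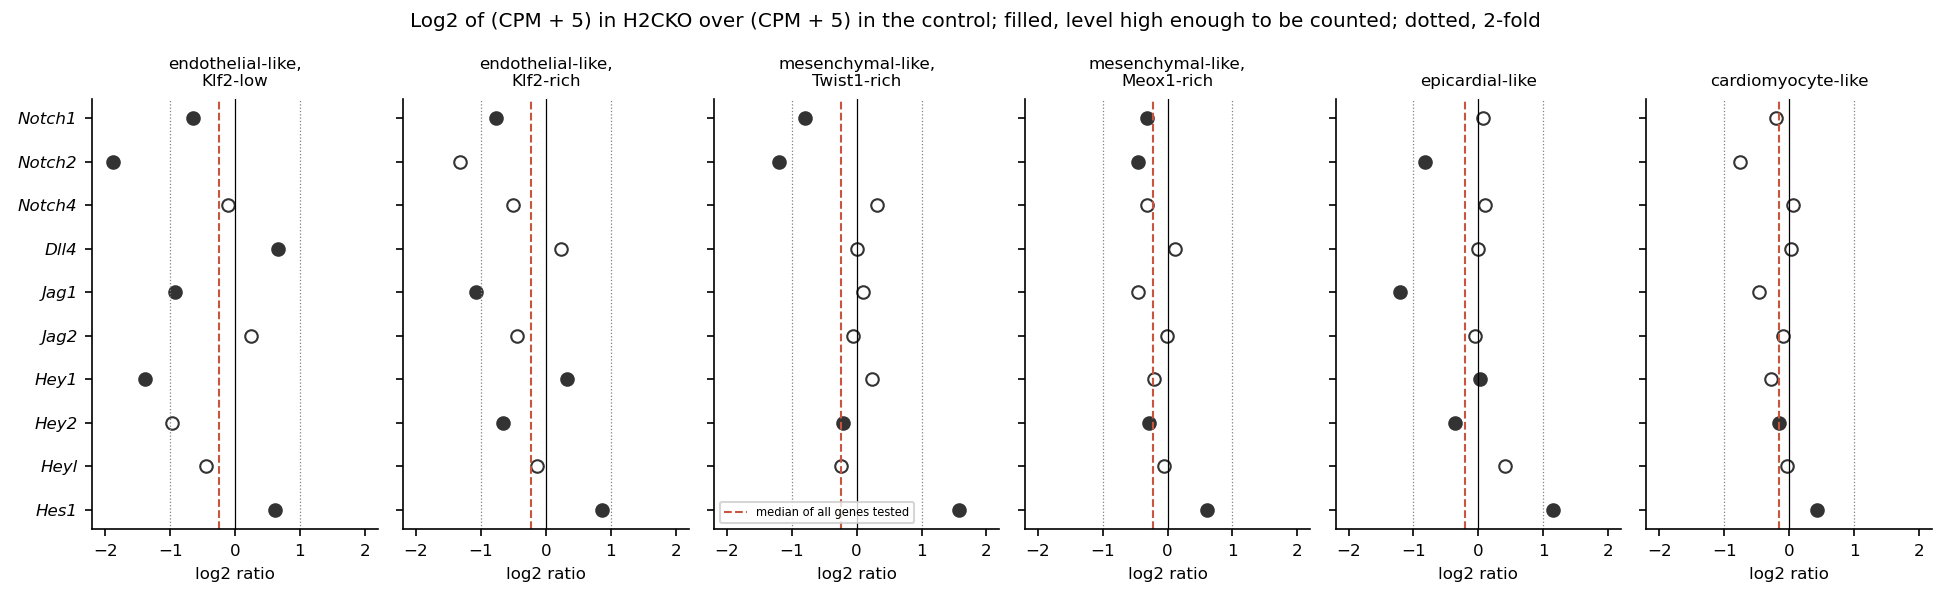
Log2 ratio (x axis) of H2CKO over control for the 10 genes (y axis) in 6 clusters or classes, with 5 CPM added to each level. Filled points had at least 20 CPM and 20 UMIs in the higher library, dotted lines mark 2-fold and the dashed line the median of all genes at that level. Hes1 lies to the right of 0 in all 6 panels, Notch2 to the left in all 6, and Hey1 is at −1.38 in the Klf2-low and at 0.33 in the Klf2-rich cluster.

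Mesenchymal-like cells had less Notch1 and Notch2 and more Hes1 in H2CKO. In the Twist1-rich cluster Notch1 was 49.2 CPM in the control and 26.3 CPM in H2CKO (625 and 170 UMIs), a ratio of 0.534 (0.448 to 0.633). Notch2 was 51.7 and 19.6 CPM, a ratio of 0.379 (0.311 to 0.459). Hes1 was 155 and 473 CPM, a ratio of 3.04 (2.87 to 3.22). Receptors and target differed in opposite directions. A Hes1 UMI was found in 69.3% of control and 89.2% of H2CKO cells (47.5% and 81.4% after thinning), beside 3.43% and 3.19% of erythroid-like cells. Median depths of the Twist1-rich cells were 11796 and 9219 UMIs. In the Meox1-rich cluster the same 3 genes had ratios of 0.770, 0.689 and 1.53, each closer to 1. Hand2 was 175 and 15.3 CPM and GFP 17.5 and 1355 CPM in the Twist1-rich cluster. In the Meox1-rich one Hand2 was 185 and 90.4 CPM and GFP 11.54 and 55.5 CPM (118 and 267 UMIs). Whether Hand2 or Cre had a part in the Notch1, Notch2 and Hes1 values was not tested. Hey2 in the Twist1-rich cluster, at 32.9 and 27.8 CPM, had a ratio whose interval includes 1 (0.705 to 1.01). With both clusters summed, 4 members reached the required level, 0 were past 2-fold lower and 1 higher (Hes1, 1.22), beside 3.54% and 0.46% of 6526 genes. In the Twist1-rich cluster alone Notch2 was past 2-fold lower, at −1.20, and Hes1 higher, at 1.57, beside 5.41% of 6505 genes lower and 0.507% higher. This Notch2 value was −0.83 with the trend of the ratio with gene span taken out and −0.96 when centred on the median gene, so that the 2-fold call did not hold under either. With the span trend taken out Hes1 was 0.92 over both clusters summed, so that its call there did not hold, and 1.24 in the Twist1-rich cluster.

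Epicardial-like cells had less Jag1 in H2CKO and like levels of Hey1. Over both epicardial-like clusters, Jag1 was 22.8 CPM in the control and 7.09 CPM in H2CKO (305 and 25 UMIs), a ratio of 0.311 (0.198 to 0.467). Hey1 was 27.2 and 27.8 CPM, a ratio of 1.02 (0.810 to 1.28). Notch2 was 29.0 and 14.2 CPM and Hes1 73.5 and 169.9 CPM. Of 5 members at the required level, 1 was past 2-fold lower (Jag1, −1.20) and 1 higher (Hes1, 1.16), beside 5.49% and 0.554% of 6317 genes. The sum joins clusters in different proportion, with 691 Upk3b-rich and 138 Tcf21-rich cells in the control and 210 and 103 in H2CKO. Apart, Hes1 was at 0.74 in the Upk3b-rich cluster, not past 2-fold, and at 1.33 in the Tcf21-rich cluster, and Jag1 was at −1.21 and −0.71, the latter below the required level. Over both clusters the Hes1 call did not hold with the gene span trend taken out (0.83) or without doublet removal (0.66). It was also lost with a stricter cell filter and with finer clustering. The Jag1 call did not hold when centred on the median gene. In these cells Hand2 differed little, 125 CPM in the control and 112 CPM in H2CKO, and GFP was 9.13 and 70.6 CPM.

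In cardiomyocyte-like cells neither member at the required level, Hey2 or Hes1, was past 2-fold. Hey2 was 68.8 and 60.9 CPM (3662 and 4499 UMIs), a ratio of 0.886 (0.848 to 0.926) and a log2 ratio of −0.16, equal to the median of all genes there (−0.16). Hes1 was 14.9 and 21.8 CPM, a log2 ratio of 0.43, which was 0.0051 when each cell was weighted alike. Notch2 and Jag1, below that level, had ratios further from 1 than Hey2: Notch2, at 10.6 and 4.16 CPM, had a ratio of 0.394 (0.342 to 0.454), and Jag1 of 0.601 (0.533 to 0.677). The class includes the atrial-like cluster, nearly all of it control, which gave 95 of the 605 control Jag1 UMIs and 70 of the 179 control Hey1 UMIs. In the Myh7-rich cluster alone Notch2 had a ratio of 0.349 (0.289 to 0.422), Jag1 of 0.733 (0.620 to 0.867) and Hey1 of 1.15 (0.788 to 1.69). Of 2 members at the required level, 0 were past 2-fold in either direction, beside 0.491% lower and 0.218% higher of 5500 genes. Hand2 and GFP were alike in the libraries in these cells, with Hand2 at 74.1 and 72.7 CPM and GFP at 9.62 and 9.55 CPM.

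Hes1 and Notch2 differed between the libraries in nearly every kind of cell, including kinds in which Hand2 was not reduced. Among 15 clusters or classes with at least 50 cells in each library, the Hes1 ratio lay above 1 in 14 and below 1 in 1, the Bmp2- and Tbx3-rich cardiomyocytes (35.4 and 25.6 CPM), and its interval lay above 1 in 12. White-blood-cell-like cells had 44.7 and 124.9 CPM of Hes1. The log2 ratio of Hes1 was 0.43 in cardiomyocyte-, 1.22 in mesenchymal- and 1.16 in epicardial-like cells, with a median of 1.16. Single clusters of these 3 classes with at least 50 cells in each library lay between −0.40 and 1.57. The Klf2-low and Klf2-rich endothelial-like clusters, at 0.61 and 0.86, lay under that median (−0.54 and −0.29) and above the cardiomyocyte-like value. The Notch2 ratio lay below 1 in 14 of 15, with 12 intervals below 1. Its median over the same 3 classes was −0.83, and the endothelial-like clusters lay beyond it by −1.05 and −0.50. For Hey1 that median was 0.01 and the 2 clusters lay −1.39 and 0.32 from it. This Hey1 median is the value of the mesenchymal-like class, in which Hand2 was also lower in H2CKO.

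Gene length moved with these ratios. In each class long genes tended to be lower and short genes higher in H2CKO, with Spearman's rho between the log2 ratio and the annotated gene span of −0.45 in the Klf2-low cluster and −0.55 in mesenchymal-like cells, over genes that share both libraries and their depth. Notch2 spans 137 kb, Notch1 58.8 kb and Jag1 35.2 kb, whereas Hes1 spans 3.41 kb and Hey1 3.90 kb. With that trend taken out, Hes1 stayed above 0, at 0.28 in the Klf2-low cluster, 0.55 in the Klf2-rich cluster, 0.92 in mesenchymal-like, 0.83 in epicardial-like and 0.21 in cardiomyocyte-like cells. Hey1 was then −1.71 in the Klf2-low cluster and 0.02 in the Klf2-rich cluster, where it had been 0.33, and Notch2 in the Klf2-low cluster was −1.56. Without the trend Hey1 in the Klf2-low cluster was thus further from 0, and Notch2 and Hes1 were nearer to it.

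Within the H2CKO library, cells with and without a GFP UMI were compared, so that differences between libraries did not enter. A single UMI is a loose sign of Cre: in the control, which has no Cre, 18.6% of Klf2-low, 23.5% of Klf2-rich and 18.8% of Twist1-rich cells held a GFP UMI, against 61.0%, 87.3% and 54.0% in H2CKO, and erythroid-like cells held one in 0.986% and 5.24%. A GFP UMI was held by 297 Klf2-low cells and not by 190, with medians of 11252 and 9722 UMIs. Hey1 was 17.1 CPM with and 14.0 CPM without it, a ratio of 1.22 (0.786 to 1.94), Dll4 was 44.5 and 49.9 CPM (0.699 to 1.14), and Notch1 was 86.2 and 92.4 CPM (0.782 to 1.11). With all UMIs, each of the 10 members had a ratio whose interval includes 1 there. After thinning, the sets were drawn again from the thinned counts (261 cells with a GFP UMI and 196 without), so they are not the same cells. Notch2 then had 7 and 0 UMIs, with an interval of the ratio that starts at 1.08, and the intervals of the other 9 include 1. Hand2 was low in both sets, 9.15 and 20.1 CPM, so that cells without a GFP UMI here are not cells with control levels of Hand2.

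In the Klf2-rich cluster the 34 cells without a GFP UMI had more Hey1 than the 234 cells with one, 139 CPM (33 UMIs) against 45.6 CPM (135 UMIs), a ratio of 0.328 (0.223 to 0.496). The cells without were shallower, with a median of 6623 UMIs against 9774.5, and the part of depth in the split was not tested. In sets drawn again after thinning to 5000 UMIs (27 and 210 cells) the ratio was 0.386 (0.229 to 0.676). Jag1 had 59 UMIs with and 2 without GFP in the thinned sets, a ratio of 3.79 with an interval just above 1 (1.004 to 32.05), and with all UMIs its interval included 1 (0.722 to 4.50). Hes1 was 253 CPM without and 169 CPM with GFP, a ratio of 0.669 (0.511 to 0.889), which after thinning was 0.849 with an interval that includes 1 (0.576 to 1.29). Hand2 was 6.42 CPM with and 25.3 CPM without GFP, against 252 CPM in the control. The cells without a GFP UMI are few. In the Twist1-rich mesenchymal-like cluster, 350 cells with and 298 without a GFP UMI had 486 and 456 CPM of Hes1, a ratio of 1.06 (0.990 to 1.14), both above the 155 CPM of the control. After thinning the ratio was 1.12, with an interval just above 1 (1.01 to 1.24). Hand2 was low in both of these sets, 7.31 and 25.0 CPM against 175 CPM in the control.

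**Figure D5:**
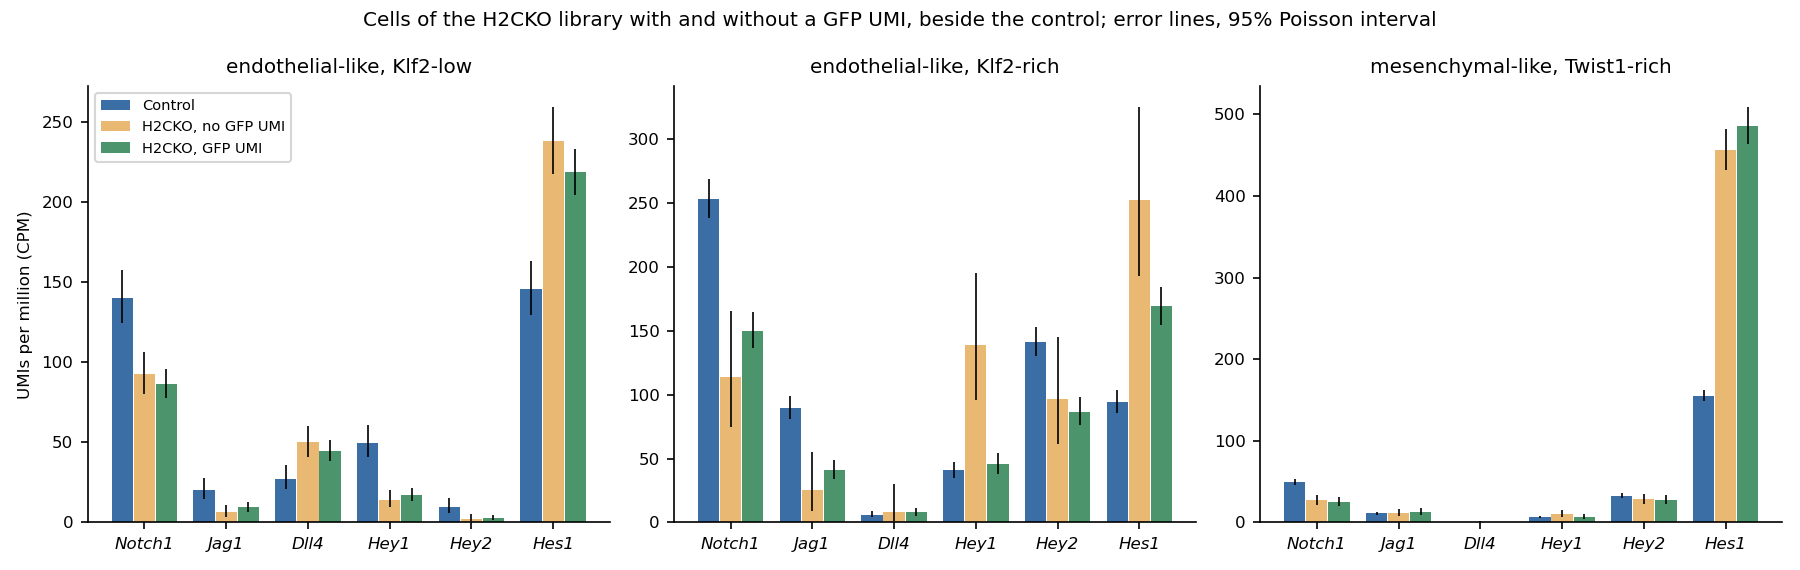
Level (y axis, CPM) of 6 members (x axis) in the control (blue), in H2CKO cells without a GFP UMI (yellow) and in H2CKO cells with one (green), with 95% Poisson intervals as error lines, in the 2 endothelial-like clusters and the Twist1-rich mesenchymal-like cluster. Hey1 in the Klf2-rich cluster is 139 CPM in the 34 cells without a GFP UMI and 45.6 CPM in the 234 with one, and Hes1 in the Twist1-rich cluster is 486 CPM with and 456 CPM without one, against 155 CPM in the control.

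Cells with and without a ligand UMI could mostly not be separated in the other members at this depth. In the H2CKO Klf2-low cluster, at 5000 UMIs per cell, 95 cells held a Dll4 UMI and 362 did not. Hey1 was 23.2 and 16.0 CPM in them, a ratio of 1.45 (0.651 to 2.98), and Notch1 was 94.7 and 96.7 CPM (0.690 to 1.37). Jag1 was the exception, with 0 UMIs in the 95 cells and 25 in the 362, a ratio whose upper limit is 0.606. The control Klf2-low cluster had only 12 cells with a Dll4 UMI and 106 without, and Notch4 there had a ratio of 3.21 with a wide interval (0.746 to 10.8). In the Klf2-rich cluster of the control, 77 cells with a Jag1 UMI and 168 without had 62.3 and 36.9 CPM of Hey1 (0.949 to 2.97), and Notch4 had a ratio of 3.05 (0.835 to 12.2). In H2CKO, 49 and 188 such cells had 85.7 and 62.8 CPM of Hey1 (0.788 to 2.28). All other member intervals in these splits include 1, several of them wide. No allowance was made for the number of intervals read in these splits, which also holds for Jag1.

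The machinery around these genes was read from a list of 50 further pathway genes. Among Klf2-low cells 26 of the 50 reached the required level, 5 were past 2-fold lower and 2 higher, beside 8.16% and 1.39% of all 6335 genes, with a median of −0.60 beside −0.25 for all genes. Dlk1, a non-canonical Delta-like ligand, was 219 CPM in the control and 20.6 CPM in H2CKO (−3.13). Adam10, the protease of the ligand-dependent cut, was 202 and 61.3 CPM (−1.64), and Furin, which cuts the receptor precursor, was 50.9 and 14.5 CPM (−1.52). Maml3, a Mastermind co-activator, was at −1.25, and Mib1, the ubiquitin ligase that ligands need in the sending cell, at −1.14. Higher were Psen2, a gamma-secretase subunit, at 27.9 and 92.7 CPM (1.57), and Mfng, a glycosyltransferase that modifies the receptors, at 9.79 and 33.3 CPM (1.37).

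In the other classes the list was read the same way. In the Klf2-rich cluster 1 of 27 was past 2-fold lower, again Adam10 (239 and 103 CPM, −1.18), and 0 higher, beside 3.35% and 0.652% of all genes, a like share. In mesenchymal-like cells 2 of 24 were past 2-fold lower (Furin −1.15, Mib1 −1.06) and 0 higher, beside 3.54% and 0.46%. In epicardial-like cells 4 of 25 were past 2-fold lower (Mib1 −1.34, Ep300 −1.26, Adam10 −1.03, and Rbpj, the DNA-binding partner, −1.03) and 0 higher, beside 5.49% and 0.554%. In cardiomyocyte-like cells 0 of 15 were past 2-fold in either direction, beside 0.491% and 0.218%, with Adam10 at −0.88 and Mib1 at −0.85. Adam10 and Mib1 lay below the class median in each group of cells for which a value is given here. The trend of the ratio with gene span was not taken out of the values of this list in any class.

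The genes whose levels ran most closely with 3 members were taken over 38 profiles (19 clusters in each of 2 libraries) by Pearson's r of log2 CPM plus 5, among 9116 genes. Dll4 ran with Gja4 (0.96), Adgrf5 (0.96) and Ushbp1 (0.96), and Notch1 with Nfatc1 (0.97), Baiap2 (0.96) and Arap3 (0.96). Hey2 ran with the connexin gene Gja1 (0.93), Grk5 (0.88) and Mmp15 (0.88). The profiles share libraries and depth, and the values describe likeness only.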

How the data were processed

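UMI counts of 2 libraries were used as the authors deposited them, per the file headers 1 matrix per library with barcodes in columns and Ensembl IDs in rows, not normalised. The authors also deposited embedding coordinates, a score without a unit, which served only to mark a subset of cells. Per the submitters' processing notes, Cell Ranger 5.0.1, Seurat 4 and the build GRCm38.p6 were named without roles. The matrices held 14114 and 13885 barcodes with 195825720 and 201477256 UMIs. Of 22401 features 22285 matched a symbol in GENCODE vM21, which also gave positions and spans.

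Cells needed 500 detected genes or more and a mitochondrial share no higher than 10%. Scrublet (scanpy 1.11.5) marked 920 of 9841 control cells as doublets and 0 of 12141 H2CKO cells, so the 607 H2CKO cells with the top 5% of scores were removed, and the removed share differed (9.35% and 5.00%). The 2000 most variable genes, without haemoglobin, mitochondrial, sex-linked, Hand2, reporter and Notch pathway genes, were scaled within each library. With 30 components, 15 neighbours from each library and Leiden clustering (leidenalg 0.10.2, resolution 1) 20 clusters resulted, each named for the marker list that led in it (median log2 fold 0.25 or more, and 3 markers or more in 10% of its cells), unless its top 10 genes held more markers of another list, or it was shallow and they held none of its own. Of the clusters 2 stayed unnamed. UMIs were summed per cluster and library; intervals are exact (Poisson, Clopper-Pearson binomial, conditional for ratios; scipy 1.17.1). Counts per library limit precision, and a count of 0 allows 3 counts. The script was tested on simulated data. Alternatives covered filters, doublets, clustering, depth, pseudocount, scaling and gene span.

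All 10 members, and pathway genes past 2-fold (up to 8 per class), are named by rule. The members, lists and tests were chosen with earlier results of these data known. The promoter table held 7 of the 10 members; sequences are from RefSeq.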

Additional observations from a re-analysis of the deposited data

Results flagged for a closer look

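Hey1 went opposite ways in the endothelial-like clusters, which is why it was singled out: its log2 ratio of H2CKO over control was 0.33 in the Klf2-rich cluster and −1.38 in the Klf2-low cluster. Each rests on 1 library per genotype, and the difference was not tested. With the gene span trend taken out the values were 0.02 and −1.71, so that the higher level in the Klf2-rich cluster did not remain. Pooling all endothelial-like cells gave −0.55, and naming each cell by its own markers gave −0.66. Neither of these keeps the 2 clusters apart. Of 14 alternatives for the Klf2-rich cluster these 2 lay below 0 and 12 above it, up to 0.62 with each cell weighted alike.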

How the results depend on the processing

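No paired analysis was possible because each group has 1 library. Over 18 alternatives, 586 of 710 log2 ratios of single members moved by less than their counting interval and 124 by more, and no member past 2-fold changed sign. The 586 include 50 ratios under the 100 CPM filter, which leaves a ratio as it is, so that these could not move. They also include ratios without a finite counting interval, which were counted as not moved. Hes1 stayed above 0 in all 5 classes, though at 0.0051 in cardiomyocyte-like cells with each cell weighted alike, and Hey1 in the Klf2-low cluster, Notch1 in the 2 endothelial-like clusters and in mesenchymal-like cells, and Notch2 and Jag1 in both endothelial-like clusters stayed below 0, under every alternative run. Counts of members past 2-fold moved as follows. In the Klf2-low cluster, lower members went from 2 to 0 at 100 CPM and 1 after thinning, and higher members from 0 to 1 with the endothelial-like clusters summed or with each cell named by its own markers. In the Klf2-rich cluster, lower members went from 1 to 0 at 100 CPM, when centred on the median gene, with the gene span trend taken out, after thinning and with each cell weighted alike, to 2 when summed and to 3 by own markers, and higher members from 0 to 1 when centred, summed or by own markers. In mesenchymal-like cells, lower members went from 0 to 1 with a pseudocount of 1 CPM or with the Twist1-rich cluster only, and higher members from 1 to 0 without the span trend. In epicardial-like cells, lower members went from 1 to 0 at 100 CPM and when centred, and higher members from 1 to 0 without the span trend, with the stricter cell filter (1500 genes, 5% mitochondrial), without doublet removal and at resolution 2. Pathway genes past 2-fold lower went in the Klf2-low cluster from 5 to 2 at 100 CPM and 3 when centred, in the Klf2-rich cluster from 1 to 2 with a pseudocount of 1 CPM and 0 when centred, in mesenchymal-like cells from 2 to 5 with that pseudocount, 0 at 100 CPM and 0 when centred, and in epicardial-like cells from 4 to 0 at 100 CPM and 2 when centred; those higher in the Klf2-low cluster went from 2 to 0 at 100 CPM. At 100 CPM fewer genes are tested, and after thinning Notch2 in the Klf2-low cluster held too few UMIs to be counted. Its log2 ratio there was −1.56 or lower under every alternative. For the other moves the cause was not tested. The span trend, the Nfatc1 or Npr3 cells, the shallow cardiomyocyte cluster, the cells without GFP and the Twist1-rich cluster were chosen after seeing the data. Members under 20 UMIs in a cluster (Heyl, Jag2, Notch4 in most) are limited by depth.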
